A study of Mus musculus with 4 samples.

Results

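The genes of tetrahydrobiopterin synthesis and recycling were measured in NIH3T3 cells that expressed a deletion mutant of EGFR and in NIH3T3 cells that expressed wild-type EGFR. NIH3T3 is an immortalised line of mouse embryonic fibroblasts, and EGFR is the receptor tyrosine kinase for epidermal growth factor. Total RNA was taken at steady state, labelled with Cy3 and hybridised to 1-colour arrays, with 2 arrays for the deletion mutant and 2 for the wild type. Which residues the mutant lacks, which species the receptor comes from, what promoter drives it and whether a line is 1 clone are not stated in the labels. They speak of separate cDNA preparations for each sample but not of separate cultures, so p-values here measure only the spread between these arrays, part of which could be technical. A single slide carried all 4 arrays, the deletion-mutant arrays in column 3 and the wild-type arrays in column 2, so column and group cannot be told apart.

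The members are 7 genes, taken by their gene name on the array: Gch1, Gchfr, Pts, Spr, Qdpr, Pcbd1 and Pcbd2. They have 9 of the 55670 probes, 2 each for Gch1 and Qdpr and 1 for each other gene. Of these, 8 probes of 6 genes passed the filter on dim probes, which asks that both arrays of 1 group or the other lie well above background, and Pcbd1 did not. Gch1 was already known from this comparison as one of the largest rises, and the gene group was chosen around it. The differences of the 7 genes between deletion-mutant and wild-type cells are therefore given as a description, with no p-value for any of them, and their counts past the threshold stand only beside those of all features.

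Tetrahydrobiopterin is a reduced pterin that serves as cofactor of the aromatic amino acid hydroxylases, of the nitric oxide synthases and of alkylglycerol monooxygenase. Cells make it from GTP through the enzymes encoded by Gch1, Pts and Spr, and the hydroxylases release it in an oxidised form that Pcbd1 and Qdpr products return to the active cofactor. GTP cyclohydrolase, the Gch1 product, is the rate-limiting enzyme and is known to be induced by cytokines in fibroblasts, endothelial cells and macrophages.

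Both Gch1 probes and the probes of Pcbd1 and Pcbd2 are identified by the first 30 of their 60 bases. They are written 5′ to 3′ as deposited, in lower case. The pair for Gch1 is shown because both probes read the same transcript at different places.
Gch1 probe 1: cgtacattccagtttcagttggtacacttg
Gch1 probe 2: ctgaacgaccctgttgggtcattctctaga
Pcbd1: gccatgttacactaatttgaataagctctc
Pcbd2: gagagagatgccatctacaaagagttctcc
The brighter Gch1 probe lies on chromosome 14 at 47775348 to 47775407 and the dimmer one at 47773797 to 47773856, both on the minus strand of mm9 and with starts 1551 bases apart. The Pcbd1 probe lies on chromosome 10 at 60556842 to 60556901, plus strand. The coordinates given for the Pcbd2 probe, chromosome 13 at 55834381 to 55876739, span 42359 bases, so this probe joins parts of the transcript that are apart in the genome. The other probes lie on chromosome 2 at 118998049 to 118998108 (Gchfr), on chromosome 9 at 50330140 to 50330199 (Pts) and on chromosome 6 at 85083852 to 85083911 (Spr). Those of Qdpr lie on chromosome 5 at 45825474 to 45825533 and at 45825799 to 45825858. Exon, intron or untranslated position of the probes was not analysed here. All 9 probes also matched a RefSeq transcript of their gene by accession, and no probe of another name did.

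Signal levels are given as scaled log2 intensity, on which 0 is the 75th percentile of an array and a step of 1 is a doubling. They are set against each other only within a probe, since probes differ in brightness for the same amount of RNA. Between 42.9% and 43.8% of probes were well above background on the deletion-mutant arrays and between 45.3% and 46.9% on the wild-type arrays, and no spot was saturated. For the 7 member probes detected on all arrays, the arrays of a group differed by a median of 0.054 and at most 0.26 (log2). The number of arrays limits the precision of every value.

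The transcript of Gch1, which encodes the enzyme of the first step, stood far above the wild-type level in deletion-mutant cells. Those of Pts and Spr, which encode the enzymes of the later steps of synthesis, differed by at most 0.33 (log2). On the brighter probe Gch1 had scaled log2 levels of 2.31 and 2.19 on the deletion-mutant arrays, against -2.19 and -2.46 on the wild-type arrays. In unscaled intensity these were 1618 and 1604 units in deletion-mutant cells and 75.4 and 66.8 units in wild-type cells. The groups did not overlap and were separated by 4.38 (log2), many times the distance between the arrays of either group. The difference was 4.57 ± 0.114 (log2, SE, n = 2 arrays per group), or 23.8-fold higher, and it came to 22.6-fold and 25.0-fold in the pairs of arrays with the same replicate number. Under normexp, a background correction that adds a constant to every spot, the difference of Gch1 was 3.46 (log2).

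The dimmer Gch1 probe had -1.59 and -1.71 on the deletion-mutant arrays. Its -5.51 and -5.78 on the wild-type arrays were not well above background, so the fold has only a lower bound. Against the lowest signal that was well above background on each wild-type array, the deletion-mutant level was higher by at least 3.86-fold. Both probes thus had higher levels in the same arrays, and only the brighter one measured the wild-type level.

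Gchfr encodes the feedback regulator GFRP, a small protein that binds GTP cyclohydrolase and through which tetrahydrobiopterin inhibits and phenylalanine stimulates it. Its levels were 4.35 and 4.41 in deletion-mutant cells and 3.51 and 3.44 in wild-type cells. The groups did not overlap, and Gchfr was 1.87-fold higher (0.91 ± 0.062, log2, SE) in deletion-mutant cells. Transcripts of the enzyme and of its regulator were thus both higher, by unequal amounts, and neither protein was measured.

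Pts encodes 6-pyruvoyl-tetrahydropterin synthase, the second enzyme of the pathway. It had 0.20 and -0.0033 on the deletion-mutant arrays, against 0.094 and 0.30 on the wild-type arrays. These values overlapped, and the difference of -0.098 ± 0.113 (log2, SE) was smaller than its error. Spr encodes sepiapterin reductase, which completes the synthesis with NADPH. Its levels were 2.93 and 2.81 in deletion-mutant cells and 2.53 and 2.54 in wild-type cells, a difference of 0.33 ± 0.067 (log2, SE). The groups did not overlap, but the size of this difference depended on the scaling and ran between 0.14 and 0.51 over the alternatives tried.

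Qdpr encodes the dihydropteridine reductase that regenerates the cofactor with NADH. Its brighter probe had 4.70 and 4.68 on the deletion-mutant arrays, against 3.72 and 3.74 on the wild-type arrays. Its other probe, whose start lies 325 bases away, had 3.37 and 3.34 in deletion-mutant cells and 2.48 in both wild-type arrays. On neither probe did the groups overlap, and Qdpr was 1.94-fold higher on the brighter probe (0.96 ± 0.055, log2, SE) and 1.84-fold higher on the other. The probes differed by 0.080 (log2) in the size of the difference.

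Pcbd1 and Pcbd2 encode paralogous pterin carbinolamine dehydratases, which act before Qdpr in recycling and also stabilise dimers of the transcription factor HNF1. Pcbd2 had 2.16 and 2.17 in deletion-mutant cells and 2.04 and 2.10 in wild-type cells, a difference of 0.10 ± 0.057 (log2, SE). The groups did not overlap, yet the gap between them was 0.069 (log2), and the sign of the difference turned under other scalings. Pcbd1 was not well above background on any array: it had -5.82 and -5.01 on the deletion-mutant arrays and -6.03 and -5.30 on the wild-type arrays, which overlapped. No fold is given for it.

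**Figure D1:**
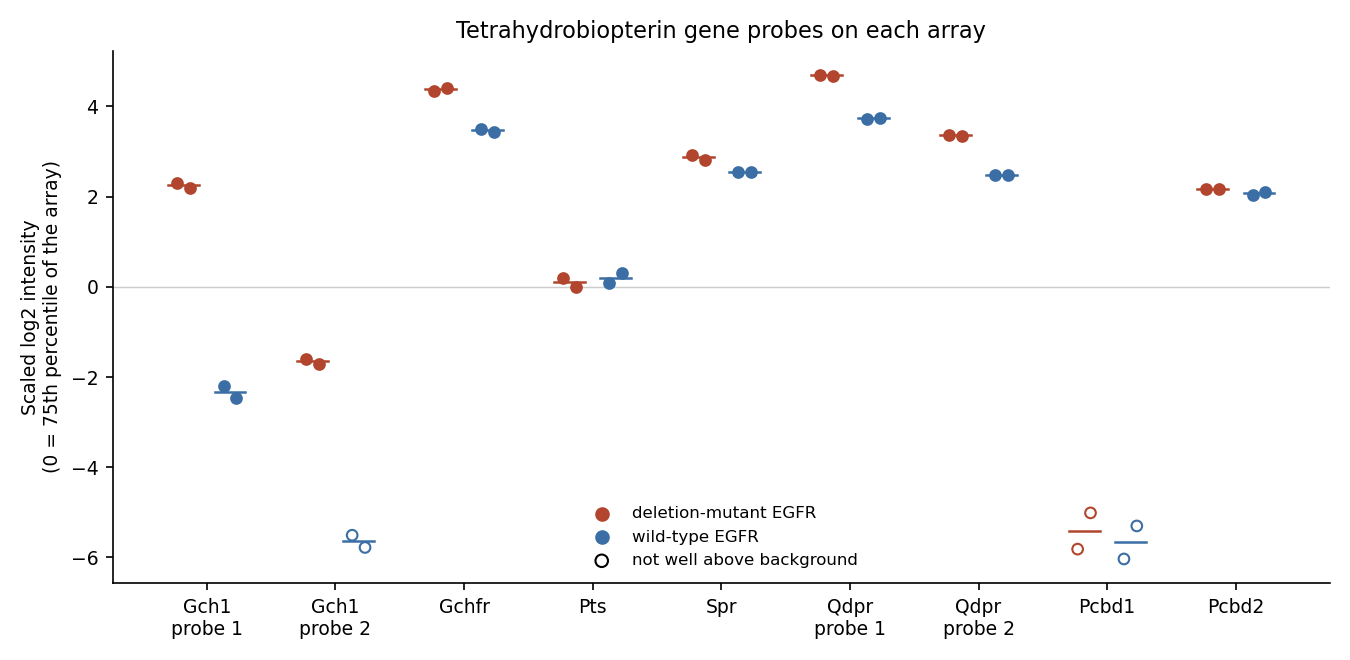
Scaled log2 intensity (0 is the 75th percentile of the array) of the 9 member probes, with the 2 deletion-mutant arrays left of the 2 wild-type arrays; each point is 1 array, bars are group means and open points were not well above background. Both Gch1 probes are high only in the deletion-mutant arrays, Gchfr and both Qdpr probes are about 0.9 higher there, and Pts overlaps between groups.

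By the fit across all features, 4 of the 6 measured members (Gch1, Gchfr, Spr and Qdpr) were higher in deletion-mutant cells at an adjusted p under 0.05 and none was lower, where 58.8% of all 18093 features passed, 34.6% higher and 24.2% lower. Only Gch1 was also at least 2-fold higher, which 5.94% of all features were, and no member was at least 2-fold lower, as 7.46% were. The groups did not overlap, with the deletion mutant higher, for 5 of the 6, as for 46.4% of all features. A further 35.3% did not overlap with the deletion mutant lower, which makes 81.7% in either direction. As the genes were chosen on this comparison, nothing is read from these counts. The median log2 difference was 0.62 over the 6 members and 0.33 without Gch1, beside 0.066 over all features. Gch1 ranked 14 from the top among the 18093 features, counting features whose wild-type level was at background. Thus 0.0774% of features, Gch1 included, were higher by a fold at least as large, with falls not counted.

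**Figure D2:**
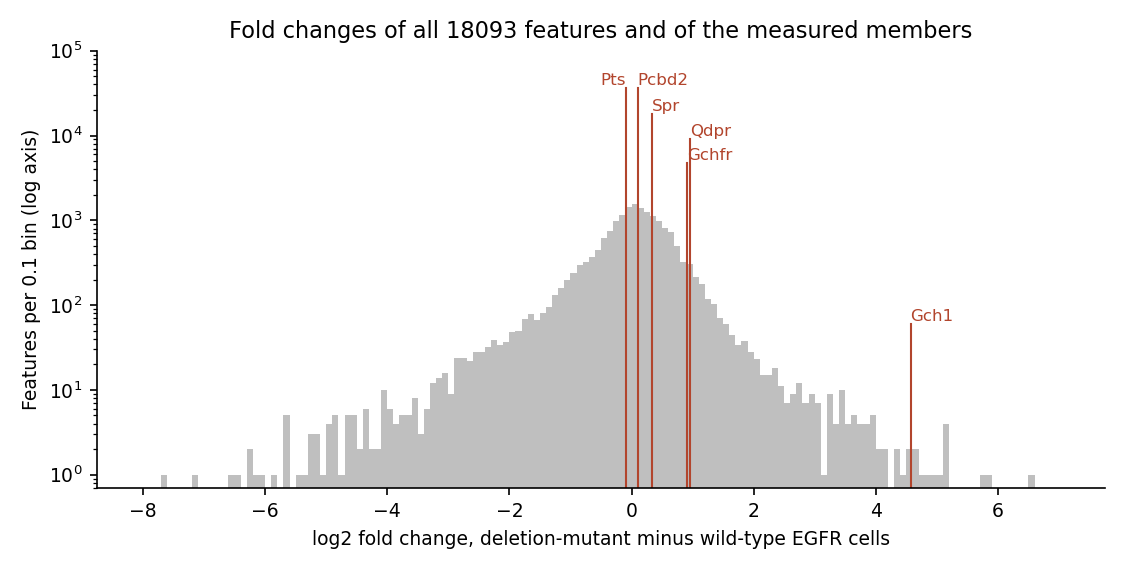
Histogram of the log2 fold change (x axis, deletion mutant minus wild type) of the 18093 features, with the number of features per bin on a log axis; red lines mark the 6 measured members. Gch1 lies at 4.57 in the sparse upper tail, while the other members lie between -0.098 and 0.96, nearer the median of 0.066.

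Other processing changed these differences by different amounts. Over the 15 alternatives run for single genes Gch1 ran between 3.46 and 4.75, Gchfr between 0.68 and 1.09 and Qdpr between 0.71 and 1.14 (log2). The count of 4 members became 3, without Spr, with scaling to the detected probes alone, under quantile normalization, without a filter on dim probes, and without deletion-mutant replicate 1 (0.27), wild-type replicate 1 (0.33) or wild-type replicate 2 (0.33). The count became 5, with Pcbd2 added, under median scaling (0.28) and with the authors' values (0.28). For Pts the sign turned under 4 alternatives and for Pcbd2 under 2.

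**Figure D3:**
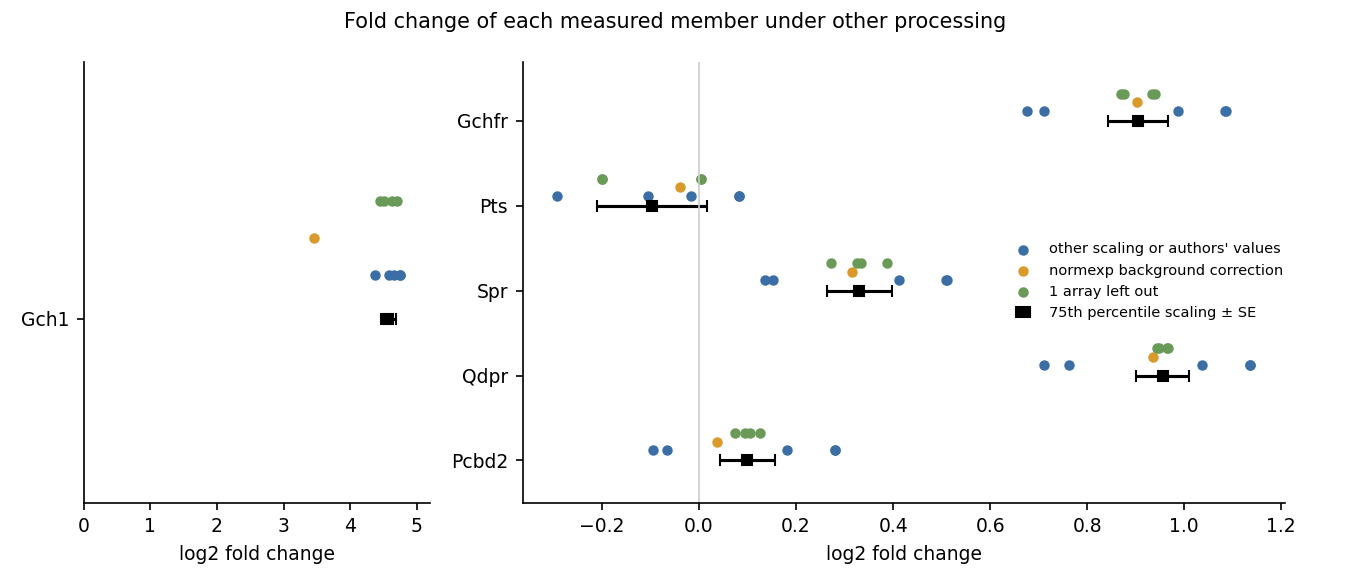
Log2 fold change (x axis, deletion mutant minus wild type) of each measured member; black squares with bars are the values under 75th percentile scaling ± SE and coloured points are other scalings, normexp background correction and fits that leave out 1 array. Gch1, on its own axis, stays between 3.46 and 4.75, whereas Pts and Pcbd2 lie on both sides of 0.

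The promoters of Gch1, Gchfr and Qdpr, the members with the largest differences, are shown for the 250 bases before the gene start, 5′ to 3′ on the coding strand, from RefSeq on GRCm38.p6. Capitals mark matches on either strand to the letters searched, which were CRE (TGACGTCA), short CRE (TGACG, contained in the full CRE), CCAAT, GC box (GGGCGG), AP-1 (TGANTCA), E-box (CACGTG), GAS (TTCNNNGAA) and ETS (CCGGAAG).
Gch1, chr14:47189414-47189663, minus strand: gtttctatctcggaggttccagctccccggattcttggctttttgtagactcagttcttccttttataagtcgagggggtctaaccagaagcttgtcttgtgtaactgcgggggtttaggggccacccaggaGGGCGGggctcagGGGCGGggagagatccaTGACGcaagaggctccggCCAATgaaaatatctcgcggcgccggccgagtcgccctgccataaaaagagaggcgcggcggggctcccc
Gchfr, chr2:119167538-119167787, plus strand: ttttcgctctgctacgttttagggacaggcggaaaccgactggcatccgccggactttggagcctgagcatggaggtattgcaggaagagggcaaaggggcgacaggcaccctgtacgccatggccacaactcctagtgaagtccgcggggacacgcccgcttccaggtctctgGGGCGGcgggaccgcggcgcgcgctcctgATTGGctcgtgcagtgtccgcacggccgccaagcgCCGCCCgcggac
Qdpr, chr5:45450230-45450479, minus strand: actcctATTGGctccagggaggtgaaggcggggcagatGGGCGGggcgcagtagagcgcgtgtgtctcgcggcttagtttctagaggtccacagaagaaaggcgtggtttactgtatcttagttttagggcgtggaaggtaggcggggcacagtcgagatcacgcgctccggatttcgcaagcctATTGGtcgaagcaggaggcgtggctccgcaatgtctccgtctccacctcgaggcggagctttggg
In the Gch1 window a short CRE stood 88 to 84 bases before the start and a CCAAT box 70 to 66 bases before it, with GC boxes at 118 to 113 and 105 to 100. In the rat, a CRE-like element and a neighbouring CCAAT box are known to carry the response of this gene to cyclic AMP. Gchfr had a CCAAT box on the opposite strand at 47 to 43 bases and GC boxes at 76 to 71 and 12 to 7, and Qdpr had CCAAT boxes on the opposite strand at 244 to 240 and 65 to 61 and a GC box at 212 to 207. The short CRE was in the windows of 2 of the 7 members, Gch1 and Pcbd2 (26 to 22 bases before the start, opposite strand), beside 17.8% of 32851 promoter windows. CCAAT was in the windows of 3 of the 7 members and the GC box in those of 5, beside 33.8% and 32.7% of all windows. G and C made up between 51.6% (Pcbd1) and 70.8% (Pcbd2) of the member windows, beside a median of 52.4% over all windows. The shares were not adjusted for this. None of the 7 held the full CRE, AP-1, E-box or GAS letters, which occurred in 1.55%, 6.75%, 6.02% and 7.02% of all windows. The ETS letters were in the windows of Pts and Spr, and in 6.91% of all. These matches describe letters only, and no binding was measured.

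The users of the cofactor and the genes around the pathway were described with 8 lists. Counts give genes past an adjusted p of 0.05 by limma over all features. In each list they stand beside 34.6% of all features higher and 24.2% lower. Each list's median stands beside the 0.066 (log2) of all features. Of 38 measured genes, 21 were higher in deletion-mutant cells and 6 lower, or 55.3% and 15.8%, beside the 34.6% and 24.2% of all features, and these lists were chosen with results of these data known. Of the 27 called genes 15 were called the same way under all 15 alternatives, and 10 were not called under some of them: Th, Cbr1, Cbr3, Impdh2, Gmps, Gphn, Mocos, Slc7a1, Aifm2 and Dhodh. Slc7a11 and Il6 were not tested under 1 of the 15. The medians of the molybdenum cofactor and arginine lists turned negative under scaling to the detected probes (-0.032 and -0.057) and quantile normalization (-0.017 and -0.0025), and those of the monoamine and cytokine lists turned positive under median scaling (0.038 and 0.090).

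Of 7 listed enzymes that need tetrahydrobiopterin, 3 were measured, and 4 were not well above background: Tph1, Tph2, Nos1 and Agmo. Nos3, the endothelial nitric oxide synthase, had -0.62 and -0.77 on the deletion-mutant arrays and -1.76 and -1.59 on the wild-type arrays. It rose 1.97-fold (0.98 ± 0.094, log2, SE, limma adjusted p = 0.0021), and its other kept probe differed by 1.72. Under normexp the difference of Nos3 was smaller, at 0.58 or 1.49-fold. Th, the tyrosine hydroxylase, rose by a smaller amount (0.38 ± 0.070, limma adjusted p = 0.0125). Among the alternatives that kept all arrays, it did not pass with scaling to the detected probes alone or without a filter on dim probes. Nos2, the inducible nitric oxide synthase that cytokines raise together with Gch1, had -0.16 and -0.072 in deletion-mutant cells and -0.23 and -0.24 in wild-type cells. Its difference of 0.12 ± 0.063 did not pass (adjusted p = 0.181), and the list had a median of 0.38.

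All 4 listed reductases that can act on pterins or related carbonyls passed the threshold, 3 upward and 1 downward. Of all features 34.6% were higher and 24.2% lower, and the list median was 0.58. The aldo-keto reductase Akr1b3 had 5.78 and 5.59 on the deletion-mutant arrays, against 4.62 and 4.48 on the wild-type arrays. It rose 2.19-fold (1.13 ± 0.099, log2, SE, limma adjusted p = 0.00172). Akr1b8 (0.82), another aldo-keto reductase, and the carbonyl reductase Cbr3 (0.34) rose as well, and Cbr1 fell by 0.21. Under the other scalings Cbr1 did not pass with the median or the spike-ins, nor Cbr3 with the percentile of the detected probes or quantile normalization.

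Genes that supply GTP, the substrate of Gch1, rose in 5 of 7 cases and fell in none, with a median of 0.56. Of all features 34.6% were higher and 24.2% lower. The list genes that rose were Hprt (0.79 ± 0.054, log2, SE), which salvages guanine, Impdh1 (0.62) and Impdh2 (0.19), Gmps (0.56) and the nucleoside diphosphate kinase Nme1 (0.60). Guk1 (0.15) and Nme2 (0.041) did not pass. Between 4 and 7 of the list were higher and 0 lower under the other scalings. The 3 kept probes of Gmps ran between 0.018 and 0.56, and with the mean of the probes of each gene 3 of the 7 were higher and the list median was 0.26. Impdh2 did not pass under 10 of the 15 alternatives.

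Molybdenum cofactor synthesis, the other pterin pathway that starts from GTP, had 2 of 6 genes higher and 1 lower, with a median of 0.16. Mocs1, which carries out its first step, had 1.94 and 2.07 on the deletion-mutant arrays and 3.03 on both wild-type arrays. It fell 2.03-fold (-1.02 ± 0.071, log2, SE, limma adjusted p = 0.00106). Gphn (0.42) and Mocos (0.31) rose, but Gphn did not pass under 7 of the 15 alternatives, among them quantile normalization, nor Mocos under 4, and neither passed with scaling to the detected probes or without a filter on dim probes. Nfs1 (0.21), Mocs2 (0.12) and Mocs3 (-0.043) did not pass, though the other kept probe of Nfs1 differed by 0.86 and with the mean of its probes Nfs1 passed (0.53). Transcripts of the first enzymes of the pterin pathways from GTP thus differed in opposite directions between the same cells.

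Among genes that supply or spare arginine, the substrate of nitric oxide synthase, 2 of 5 measured rose and 1 fell, with a median of 0.14. Ass1, which makes the precursor of arginine from citrulline, had -0.58 and -0.53 in deletion-mutant cells and 1.00 and 0.86 in wild-type cells and fell 2.79-fold (-1.48 ± 0.075, log2, SE, limma adjusted p = 0.000588). Ddah1 (0.48), which degrades methylated arginines that inhibit the synthases, and the transporter Slc7a1 (0.44) rose, the last of these not under quantile normalization (0.21) or without a filter on dim probes. Asl (0.14) and Ddah2 (-0.15) did not pass, and Slc7a2, Arg1 and Arg2 were not well above background.

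Monoamine handling had 1 of 3 measured genes higher and 1 lower, with a median of -0.14. The vesicle transporter Slc18a2 rose by 0.66 (log2), and Dnajc12, a co-chaperone of the hydroxylases, had -0.55 and -0.62 on the deletion-mutant arrays and 0.11 and 0.34 on the wild-type arrays and fell 1.75-fold (limma adjusted p = 0.00369). Maoa (-0.14) did not pass. Ddc, Dbh, Slc18a1 and Maob were not well above background on both arrays of either group.

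GCH1 is known to protect cells from lipid peroxidation. Of 6 genes of that defence or of its lipid substrates 5 were higher and none lower, with a median of 0.51. Among all features 34.6% were higher and 24.2% lower. Slc7a11, the cystine transporter that feeds glutathione synthesis, had -0.81 and -0.89 in deletion-mutant cells, against -3.71 and -3.24 in wild-type cells. Only 1 of the 2 wild-type arrays had it well above background, so its wild-type level is partly unmeasured and the size of the change is uncertain. The fitted difference was 2.63 ± 0.171 (log2, SE, limma adjusted p = 0.000936), against 1.45 under normexp, and the gene was not tested where all 4 arrays had to pass the filter on dim probes. Acsl4, which loads polyunsaturated fatty acids into lipids and so favours peroxidation, rose 2.36-fold. Aifm2 (0.51), Coq2 (0.50) and Dhodh (0.33), which act through ubiquinone, rose too, while Gpx4 (0.15) did not pass. The other kept probe differed by 0.035 for Dhodh, 0.23 for Aifm2 and 0.60 for Coq2. Neither Dhodh nor Aifm2 passed with scaling to the detected probes or without a filter on dim probes. Dhodh also did not pass under quantile normalization or with the mean of its probes. Between 3 and 6 of the list were higher and 0 lower under the other scalings.

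Of 9 listed genes that immune cytokines induce beside Gch1, 5 were measured, 1 of them higher and 2 lower, with a median of -0.090. Ptgs2, which makes prostaglandins, rose 2.09-fold, whereas the adhesion receptor Vcam1 fell 3.37-fold (-1.75 ± 0.054, log2, SE). Il6 was not well above background in deletion-mutant cells and was at least 1.29-fold lower there. Irf1 (-0.090) and Nos2 did not pass, and Icam1, Tnf, Il1b and Ido1 were not well above background on both arrays of either group.

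**Figure D4:**
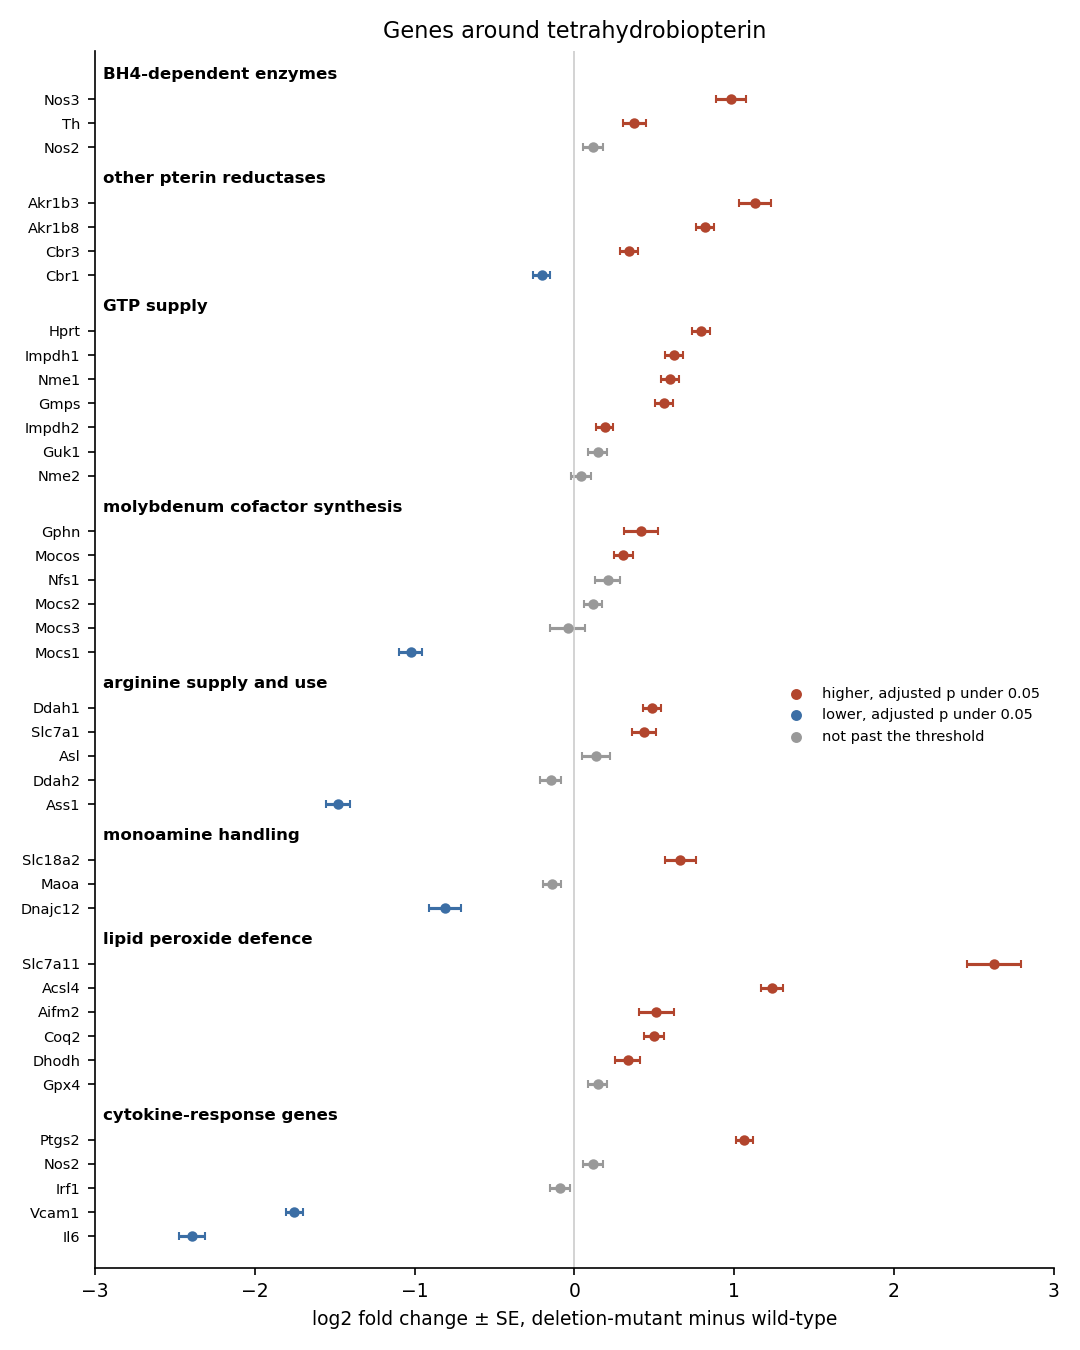
Log2 fold change ± SE (x axis, deletion mutant minus wild type, n = 2 arrays per group) of the 38 measured genes of the 8 lists, with Nos2 shown in both of its lists, BH4 standing for tetrahydrobiopterin, and Il6 drawn at its measured value although it was not well above background in deletion-mutant cells; colour marks direction where the limma adjusted p was under 0.05. Slc7a11, Acsl4 and Akr1b3 lie to the right, and Mocs1, Ass1, Vcam1 and Il6 to the left.

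Within 500 kb of the brighter Gch1 probe on chromosome 14, 17 other features were measured. Of these, 9 were higher, 2 lower and 6 not past the threshold, where 58.8% of all features passed, 34.6% higher and 24.2% lower. Their median was 0.39 (log2), beside 0.066 over all features. The largest difference was that of Dlgap5, a mitotic spindle protein, at 2.18-fold higher (1.13 ± 0.060, log2, SE, limma adjusted p = 0.000649). Atg14, an autophagy protein, fell by 0.75, and Wdhd1, a replication protein, differed by 0.58. Samd4, whose product binds RNA, was the nearest of all measured neighbours, at -53.5 kb, and fell by 0.50 (limma adjusted p = 0.0152). None of the 17 approached the 4.57 of Gch1.

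**Figure D5:**
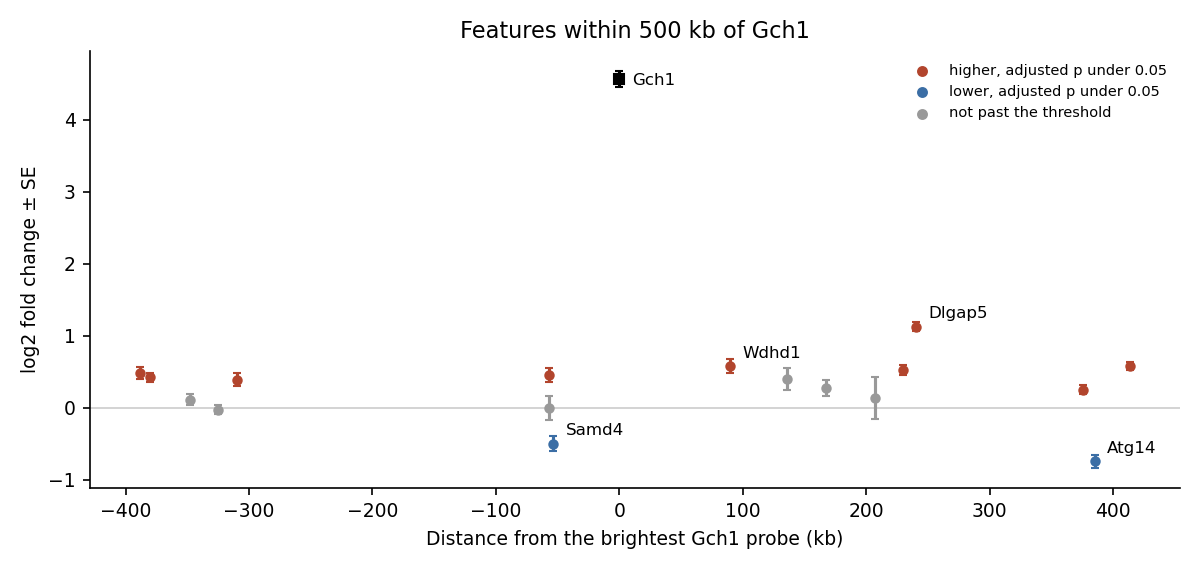
Log2 fold change ± SE (y axis, deletion mutant minus wild type) against the distance in kb from the brighter Gch1 probe (black square), for the 17 other features measured within 500 kb. Gch1 stands at 4.57 and the neighbours lie between -0.75 and 1.13.

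By Euclidean distance between the 4 array values after subtraction of their own mean, the named features nearest to Gch1, among 12558 detected on all arrays, were Rgs16, Ngef, Evi2a, Upp1 and Il33, at distances between 0.19 and 0.64 (log2). Their levels were higher in deletion-mutant cells by 23.5-fold (Ngef) to 31.6-fold (Il33). None of them lies on chromosome 14. With 4 arrays in 2 groups this likeness amounts to a similar fold, and it depended on the background correction. Under normexp Gch1 was 11.0-fold higher, Il33 12.9-fold, Evi2a 14.7-fold and Upp1 18.1-fold, but Rgs16 21.5-fold and Ngef 21.7-fold.

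Of 10 fibroblast markers 9 were measured. At an adjusted p under 0.05, 7 of these were lower in deletion-mutant cells and 1 higher, beside 24.2% and 34.6% of all features. The largest falls were those of Col1a1 (-1.24) and Pdgfrb (-1.08), while Vim was higher (0.23) and Fap was not well above background. The summed intensity of the measured fibroblast markers was 450616 and 499882 units in deletion-mutant cells and 659641 and 723226 in wild-type cells. Most of each sum was Col1a2, S100a4, Vim and Fn1. Sums here are of unscaled intensity, so they weigh each marker by the brightness of its probe. The leukocyte and macrophage list had 4 of 6 measured, with Ptprc and Emr1 (now Adgre1) not well above background, and sums of 7266 and 7817 in deletion-mutant cells and 12813 and 14386 in wild-type cells. Most of these sums was the integrin gene Itgam, which was lower in deletion-mutant cells (-0.92), while Cd68 (-0.100), Csf1r (0.17) and Cd3e (-0.10) did not pass. In the endothelial list 2 of 5 were measured, with Cdh5, Tek and Tie1 not well above background. The sums lay between 2125 and 2341 in deletion-mutant cells and between 2382 and 2435 in wild-type cells. Most of each sum was Kdr, which did not pass (-0.028), while Pecam1 was lower in deletion-mutant cells (-0.40). Epithelial markers Epcam, Cdh1, Krt18 and Cldn4 were not well above background. The sums of Krt8 and Krt14 lay between 135 and 140 in deletion-mutant cells and between 93.4 and 105 in wild-type cells. Krt8, not well above background in wild-type cells, was at least 2.79-fold higher in the deletion mutant, whereas Krt14 was lower there (-0.42). Among markers of monoamine neurons Th and Slc18a2 were measured and Slc6a3, Slc6a4 and Tph2 were not well above background. None of the 4 hepatocyte and 4 mast cell markers was measured. The part of these markers in the differences of the tetrahydrobiopterin genes was not tested, and in bulk RNA fewer cells of a type and less RNA per cell cannot be told apart.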

How the data were processed

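The arrays were 1-colour Agilent arrays, read per the file headers with Feature Extraction 10.10.1.1, with probe coordinates on mm9. The deposited scanner files hold an intensity for each spot that the scanner software had corrected for background and for trends over the slide, beside raw mean and local background intensity and flags of 0 or 1. The deposited flags are used as other values, with no unit. The authors also deposited log2 values, and these differed from the log2 of the corrected intensity by a constant for each array, to within 0.01 for 100% of probes, which amounts to median scaling.

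Control spots and spots marked as outliers were left out, as were 11 probes with every spot marked on an array, repeated spots were averaged on the log2 scale, and the 75th percentile of each array was subtracted. A gene was represented by its brightest probe that passed the filter on dim probes, which left 18093 features. A bound on a fold sets the bright group's mean against, per array of the dim group, the lowest signal among detected probes or the probe's own signal, whichever was higher. Groups were compared with limma 3.58.1 in R 4.3.3 (lmFit and eBayes, 2 residual degrees of freedom), with Benjamini-Hochberg adjustment over the 18093 features. In simulated data with 18093 features, 89% of 2-fold and 99% of 4-fold changes were recovered. Only a small part of the simulated features was changed, whereas 58.8% of features passed in these data. The simulated noise was normal and independent, with the spread between these arrays, so these shares do not carry over to these data. Python 3.11.15 was used for tables (pandas 2.3.3) and plots (matplotlib 3.10.9).

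The members, lists and tests were chosen with earlier results of these data known, and a few list genes are not reported here and enter no list count. Named genes were all members, the up to 4 largest changes per list and within 500 kb of Gch1, and the 5 features nearest in pattern to Gch1, and members of a list not past the threshold or not detected were named besides, as were Samd4 and the markers given with values, after their values were seen. RefSeq promoters were matched by symbol for 7 of 7 members. Alternatives were 4 other scalings, normexp, the authors' values, 2 filters, a variance trend, 2 ways of treating several probes, a replicate block and leaving out each array.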

Additional observations from a re-analysis of the deposited data

How the results depend on the processing

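Leaving out each array in turn gave between 7815 and 9561 features past the threshold in place of 10631, 3 or 4 of the members in place of 4, and between 20 and 24 of the pathway genes in place of 27. The pathway calls that ended were those of Cbr1, Impdh2, Gphn and Mocos without deletion-mutant replicate 1, of Cbr1, Impdh2 and Dhodh without deletion-mutant replicate 2, of Th, Cbr1, Cbr3, Impdh2, Gphn, Aifm2 and Dhodh without wild-type replicate 1, and of Th, Cbr1, Impdh2, Gphn, Mocos, Aifm2 and Dhodh without wild-type replicate 2. Such a fit leaves 1 array in a group, whose spread is assumed to be that of the other group. Without a filter on dim probes 6466 of 34816 features passed. The replicate numbers of the labels gave 9990 features with a replicate block; deviations of same-numbered arrays correlated at 0.047, so the numbers are not taken as pairs. The block changed no member's call, and 24 pathway genes passed. Median scaling moved the median of the 18093 features by 0.18 (log2), the percentile of detected probes by -0.19, the spike-ins by 0.081 and quantile normalization by -0.062. Of features past the threshold 58.9% were higher, against 73.5%, 38.9%, 65.8% and 51.1% under these scalings in that order and 73.5% with the authors' values. Of pathway genes past it 77.8% were higher, against 84.8%, 60.9%, 82.8% and 66.7% and 84.8%, and 61.9% without a filter. Of the 27 called pathway genes 18 kept their call under all 4 scalings, and 0 were called in both directions. Pts turned to 0.082 under median scaling, 0.083 with the authors' values, and 0.0040 without deletion-mutant replicate 2 and 0.0044 without wild-type replicate 2 (from -0.20 to 0.0044 over the arrays left out), and Pcbd2 to -0.095 under the percentile of detected probes and -0.065 under quantile normalization. Ddah2 (0.031 and 0.032) and Maoa (0.038 and 0.039) turned under median scaling and with the authors' values, and Nos2 (-0.079) under the percentile of detected probes. The cause was not tested beyond these shifts. Signals near background, as for Pcbd1 and the dimmer Gch1 probe, limit what could be measured.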
